A study of Mus musculus with 282 samples.

Results

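Granulocyte-monocyte progenitors (GMPs) labelled S phase were compared with GMPs labelled G1 phase, in single cells taken from mouse bone marrow. Members were the cells that the authors' deposited cell tables list as passed and label S or G1, which were 110 of 238 listed cells. There were 43 S cells, 15 in an experiment of 1 plate and 28 in an experiment of 2 plates, and 67 G1 cells, 12 and 55 in the same experiments. The other 128 cells were labelled G2M. The mice carried GFP-p65 on both alleles and H2BmCherry on 1 allele, were 12 to 19 weeks old and of both sexes. Every cell came from this one genotype, was cultured for 8 h under a confocal microscope and was picked with a micromanipulator. Cells had received TNF or had an empty cytokine entry, called blank and taken to mean that no cytokine was given. The 110 cells comprised 35 S and 50 G1 TNF cells, and 8 S and 17 G1 blank cells. The tables also give each cell a response class, by a rule not given in the sources used here.

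A dividing cell grows in G1, copies its DNA in S phase and then passes through G2 and mitosis. GMPs are proliferating progenitors that give rise to neutrophils and monocytes. TNF is a cytokine that activates the transcription factor NfkB, of which p65 is a subunit, and NfkB switches on genes of inflammation. The tagged p65 makes its location visible in living cells, and the tagged histone marks the nucleus.

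The count tables name genes by Ensembl identifier only, and 0 of 55450 identifiers matched the reference gene table. Genes of known lineage, replication or inflammatory function, and the defining markers of GMPs and of other marrow cells, were therefore not analysed here by name, and the labelled cell type was not checked. Genes are given below by identifier with no role attached. Inflammatory genes were approached through the genes that rose with TNF in the G2M cells, none of which are S or G1 cells.

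The phase labels were themselves made from expression, as far as the data show. A published classifier of cell cycle phase, scran's cyclone with its mouse gene pairs, was run on the deposited counts. It gave the deposited label to 228 of 238 cells, among them 43 of 43 S cells, 67 of 67 G1 cells and 118 of 128 G2M cells. Across the 238 cells, which share libraries and depth with the deposited scores, Pearson's r between deposited and recomputed scores was 0.987 for S, 0.998 for G1 and 0.994 for G2M. In this classifier S is the class left over when neither the G1 nor the G2M raw score reaches 0.5, before the scores are scaled to sum to 1. Both recomputed raw scores were under 0.5 in 43 of 43 S cells and in 0 of 67 G1 cells, which follows from this rule and the matching labels. Given the matching labels and scores, the 667 genes of the classifier are taken as part of how the cells were chosen. Their differences are given as a description.

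The S cells were a mixed group by their own scores. The deposited S score ran from 0.0164 to 0.893 in S cells (median 0.539), against 0.00 to 0.553 in G1 cells (median 0.155). The G1 score ran from 0.00 to 0.658 in S cells (median 0.195), against 0.447 to 0.987 in G1 cells (median 0.791). These deposited scores sum to 1 in each cell, and on this scale both overlapped between S and G1 cells. The cut of 0.5 given above is on the raw scores. S was the highest of the 3 scores in 26 of 43 S cells, G2M in 11 and G1 in 6, whereas G1 was the highest in 66 of 67 G1 cells.

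**Figure D1:**
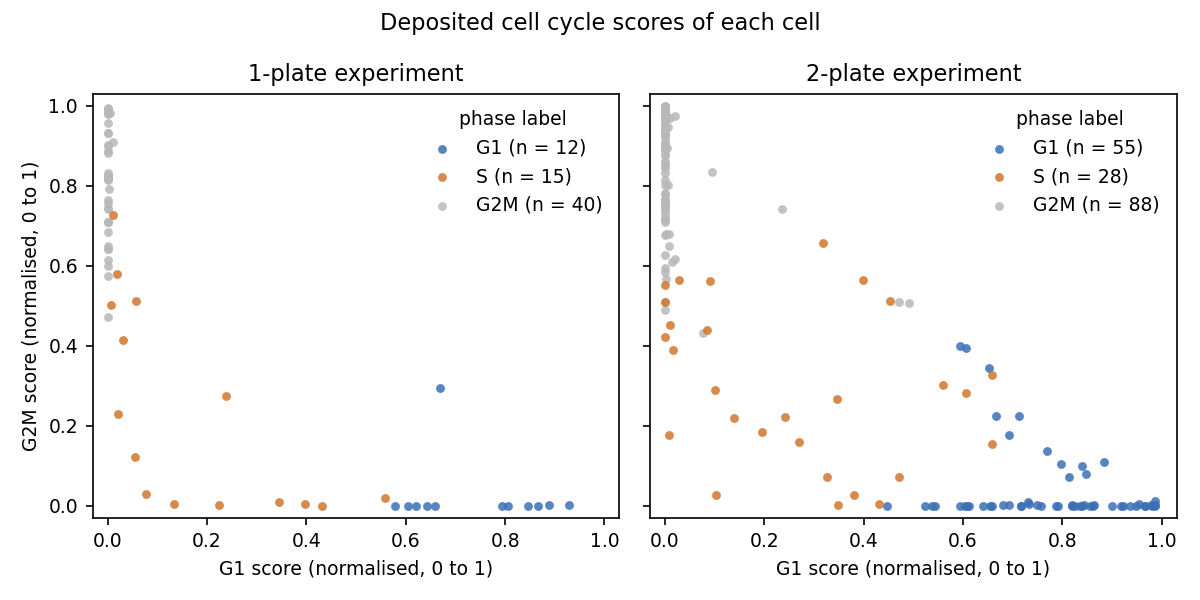
Deposited G1 score (x axis) against G2M score (y axis) of each listed cell, in the 1-plate and the 2-plate experiment; the 3 scores of a cell sum to 1. The 67 G1 cells lie at the right, the 128 G2M cells at the top left, and the 43 S cells fill the space between them.

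The classifier's genes, which chose the cells, differed between S and G1 cells by their role in the G1 and G2M pairs more than by their role in the S pairs. Genes that the classifier's pairs set lower in G1 had a median log2 difference, S minus G1, of 0.55 over 279 tested, against 0.16 over the 294 set higher in G1. Genes set higher in G2M had a median of 0.49 over 283 tested, against 0.17 over the 292 set lower in G2M. Genes set higher in S had a median of 0.23 over 333 tested, and genes set lower in S had a nearly equal 0.25 over 248. Among S cells whose S score was the highest of the 3, these medians were 0.34 over 336 genes and 0.30 over 249.

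S cells made up 22.4% of listed cells in the 1-plate experiment (15 of 67, exact 95% binomial interval 13.1% to 34.2%) and 16.4% in the 2-plate experiment (28 of 171, 11.2% to 22.8%). G1 cells made up 17.9% in the 1-plate experiment (9.61% to 29.2%) and 32.2% in the 2-plate experiment (25.2% to 39.7%). With TNF, 12 of 51 and 23 of 127 cells were S, against 3 of 16 and 5 of 44 blank cells, and the intervals of these shares overlapped within each experiment. Within the 2-plate experiment, 17 of 68 TNF cells on Plate2 were S, against 6 of 59 on Plate1, whereas 1 of 20 blank cells on Plate2 was S, against 4 of 24 on Plate1. Cells were picked by hand, so the shares describe the picked cells.

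Phase and response class were not spread evenly over each other. Oscillatory cells were 2 of 12 S cells against 4 of 9 G1 cells with TNF in the 1-plate experiment. They were 2 of 23 S cells against 12 of 41 G1 cells with TNF in the 2-plate experiment. Transient cells were 7 of 12 S and 4 of 9 G1 TNF cells in the 1-plate experiment, and 12 of 23 S and 14 of 41 G1 TNF cells in the 2-plate experiment. The response classes of S and G1 cells therefore differed in both experiments in the same direction, with 4 oscillatory S cells in all.

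The depth of S and G1 cells overlapped on every plate. Reads assigned to genes ran from 384363 to 1640537 in S cells and from 486902 to 1585444 in G1 cells of the 1-plate experiment. In the 2-plate experiment they ran from 182301 to 2559312 in S cells and from 241824 to 2978158 in G1 cells. Plate2 of the 2-plate experiment stood apart: 8 of its 18 S cells and 12 of its 30 G1 cells had fewer than 8000 detected genes, against 0 of 25 other S cells and 1 of 37 other G1 cells. After thinning to 375835 reads per cell, which left out 10 shallower cells, S and G1 cells had median detected genes of 9508 and 9006 in the 1-plate experiment, and of 8810 and 8829 in the 2-plate experiment. Gene reads per spike-in read, a measure of RNA per cell, had medians of 891.6 in S and 729.1 in G1 cells of the 1-plate experiment. The medians were 81.4 in S and 85.2 in G1 cells on Plate1 of the 2-plate experiment, and 34.03 in S and 53.3 in G1 cells on its Plate2. S cells were higher on 1 plate and lower on the other two, and the ranges overlapped on each.

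**Figure D2:**
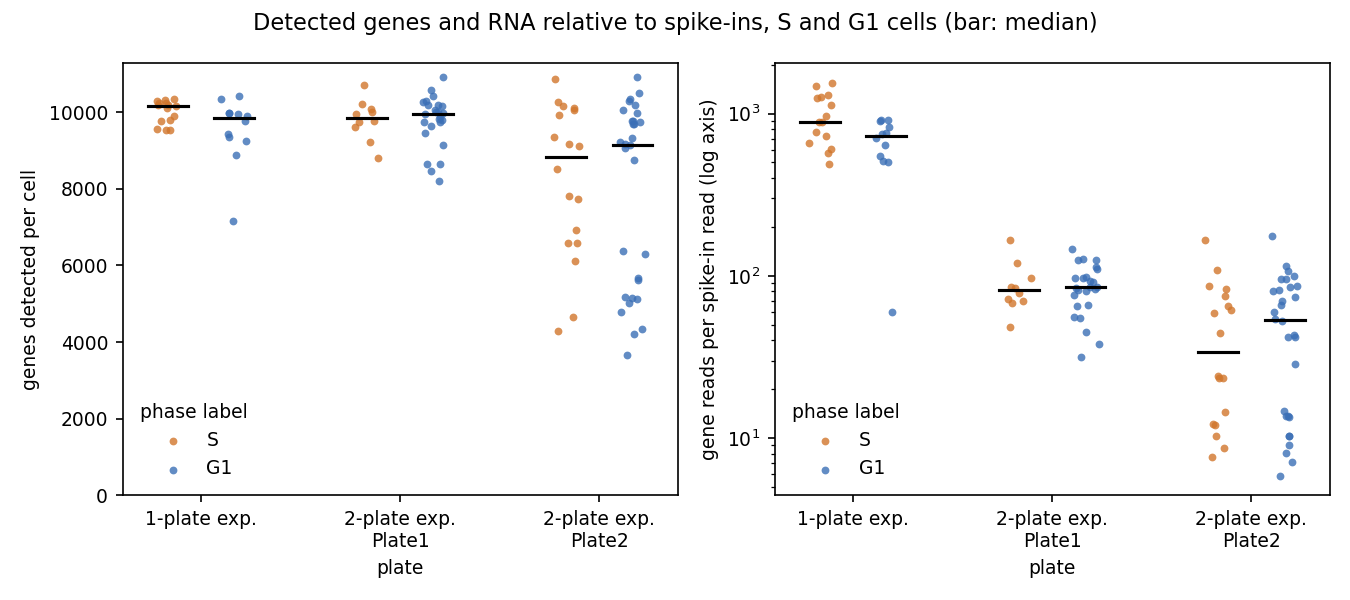
Genes detected (left) and gene reads per spike-in read on a log axis (right) for each S and G1 cell by plate; bars are medians. The 20 S and G1 cells with under 8000 genes in the 2-plate experiment all sit on its Plate2.

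Expression was tested on sums of cells, since cells of one experiment are not replicates. Reads were summed per experiment, stimulus and phase where at least 5 cells were available, which gave 6 sums of 4431127 to 53978058 reads. The blank S and G1 cells of the 1-plate experiment, 3 of each, were too few to be summed. Of 13267 genes tested, 43 were called in S against G1 cells (0.324%; edgeR's quasi-likelihood test, adjusted p under 0.05, 2 residual degrees of freedom). Of these, 20 were higher in S cells (0.151% of those tested) and 23 were lower (0.173%), and 32 differed by at least 4-fold. The sign was the same in both experiments for 43 of 43 called genes, against 8109 of 13267 genes tested, although the call itself favours a shared sign. The count rested on which libraries entered: 8 genes were called without the 1-plate experiment, 412 without Plate1 and 251 without Plate2 of the 2-plate experiment. It also rested on the filter and the scaling, with 142 of 8432 genes (1.68%) called when genes needed 10 CPM (a gene's reads per 1000000 reads of the sum) in at least 50% of the sums, and 0 with spike-in factors, where 1420 genes had an unadjusted p under 0.05. DESeq2 called 854.

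Classifier genes made up part of the calls in one direction. Of 620 classifier genes tested, 12 were called (1.94%), all of them higher in S cells, with a median log2 fold change of 2.25. These describe the choice of cells. Outside the classifier, 31 of 12647 genes were called (0.245%), 8 higher in S cells with a median log2 fold change of 2.41 and 23 lower with a median of -2.13. When classifier genes were left out before p-values were adjusted, 8 genes were called, 2 higher and 6 lower, and 31 of 31 kept their direction. Genes that co-vary with the classifier's are not independent of the label either, so these calls too describe cells sorted by expression.

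The G2M cells, which did not enter this test, placed the called genes along the cycle. For the 8 genes outside the classifier called higher in S, G2M cells lay nearer to S than to G1 cells in 8 of 8. The same held for 58.6% of all genes outside the classifier with a higher level in S. For the 23 called lower in S, G2M cells lay nearer to S in 2 of 23, against 50.4% of all genes with a lower level in S. Their median log2 difference was -1.91 for S minus G1 cells and -0.48 for G2M minus G1 cells. The genes called higher in S were therefore high in both S and G2M cells, and most of those called lower were low in S cells relative to both other phases.

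Among the genes with the largest changes outside the classifier, ENSMUSG00000058773 rose in S cells. It stood at 88.7 CPM in S and 7.05 CPM in G1 TNF cells of the 1-plate experiment. In the 2-plate experiment it stood at 124.9 CPM in S and 22.8 CPM in G1 TNF cells, and at 292.8 CPM in S and 19.1 CPM in G1 blank cells. The 3 S sums did not overlap with the 3 G1 sums. Genes were chosen for large changes in these same sums, which favours such separation, here and for the genes below. In the 1-plate experiment, 12 of 12 S and 4 of 9 G1 TNF cells had a read, as did 23 of 23 S and 35 of 41 G1 TNF cells in the 2-plate experiment. In blank cells of the 2-plate experiment the shares were close, 4 of 5 S and 11 of 14 G1 cells. The highest cell gave 50.7% of the reads in S blank cells, and 77.6% of those in G1 TNF cells of the 1-plate experiment. Its log2 fold change was 3.34 (SE 0.34; edgeR adjusted p = 0.0421). With all stimuli together, G2M cells had 63.96 and 128.8 CPM in the 1-plate and 2-plate experiments, close to the 81.4 and 148.4 CPM of S cells.

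ENSMUSG00000061615 also rose in S cells. It stood at 18.1 CPM in S and 1.79 CPM in G1 TNF cells of the 1-plate experiment. In the 2-plate experiment it stood at 78.6 CPM in S and 8.84 CPM in G1 TNF cells, and at 96.6 CPM in S and 8.46 CPM in G1 blank cells. The S sums again lay above the G1 sums, and a read was found in 5 of 5 S and 11 of 14 G1 blank cells. Its log2 fold change was 3.33 (SE 0.28; edgeR adjusted p = 0.0294). The call did not hold without the minimum of 5 cells, which left out the 1-plate blank cells (3 S and 3 G1). With blank cells of both experiments alone, and no minimum, the log2 fold change was 0.70 (edgeR adjusted p = 1). With all S and G1 cells and no minimum it was 2.17 (edgeR adjusted p = 0.505). For ENSMUSG00000058773 the same values were 2.70 (edgeR adjusted p = 0.467) and 2.90 (edgeR adjusted p = 0.0647).

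ENSMUSG00000021614 fell in S cells, to 2.28 CPM in S against 120.2 CPM in G1 TNF cells of the 1-plate experiment. In the 2-plate experiment it had 5.66 CPM in S and 108.4 CPM in G1 TNF cells, and 2.43 CPM in S and 29.9 CPM in G1 blank cells. The S sums lay below the G1 sums. The G1 level rested on few cells: 1 cell gave 81% of its reads in G1 TNF cells of the 1-plate experiment, against 29.5% for the highest cell of the 2-plate experiment. The S blank sum held 10 reads, all from 1 cell. The share of cells with a read was similar in TNF cells of the 2-plate experiment, 11 of 23 S and 22 of 41 G1 cells. It was lower in S in the 1-plate experiment, with 2 of 12 S and 6 of 9 G1 TNF cells. In blank cells of the 2-plate experiment a read was found in 1 of 5 S and 5 of 14 G1 cells. The log2 fold change of ENSMUSG00000021614 was -4.59 (SE 0.46; edgeR adjusted p = 0.0421). With blank cells of both experiments alone it was -0.84 (edgeR adjusted p = 1), and with no minimum of cells it was -3.73 (edgeR adjusted p = 0.239). G2M cells had 116.5 and 49.5 CPM in the 1-plate and 2-plate experiments, so S cells were the low ones among the 3 phases.

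ENSMUSG00000035493 fell as well, to 5.498 CPM in S against 305.5 CPM in G1 TNF cells of the 1-plate experiment. In the 2-plate experiment it had 26.9 CPM in S and 254.5 CPM in G1 TNF cells, and 7.76 CPM in S and 133.7 CPM in G1 blank cells. In G1 TNF cells, 1 cell gave 73.7% of its reads in the 1-plate experiment, against 40.7% for the highest cell of the 2-plate experiment. In S TNF cells of the 2-plate experiment 1 of 23 cells gave 77.2% of the reads, and in blank cells the highest cell gave 71.9% in S and 60.6% in G1. Its log2 fold change was -4.33 (SE 0.52; edgeR adjusted p = 0.043). Without Plate2 of the 2-plate experiment it was -3.26 (edgeR adjusted p = 0.183). With blank cells of both experiments alone it was -3.96 (edgeR adjusted p = 0.0431), and among transient TNF cells alone it was 0.22 (edgeR adjusted p = 0.999), both with no minimum of cells per sum. In the same cells ENSMUSG00000021614 had a log2 fold change of -2.73 (edgeR adjusted p = 0.999), ENSMUSG00000061615 one of 3.39 (edgeR adjusted p = 0.125) and ENSMUSG00000058773 one of 2.52 (edgeR adjusted p = 0.0166). The part of response class in the differences was not tested. None of these 4 genes was in the list of TNF-induced genes described next.

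**Figure D3:**
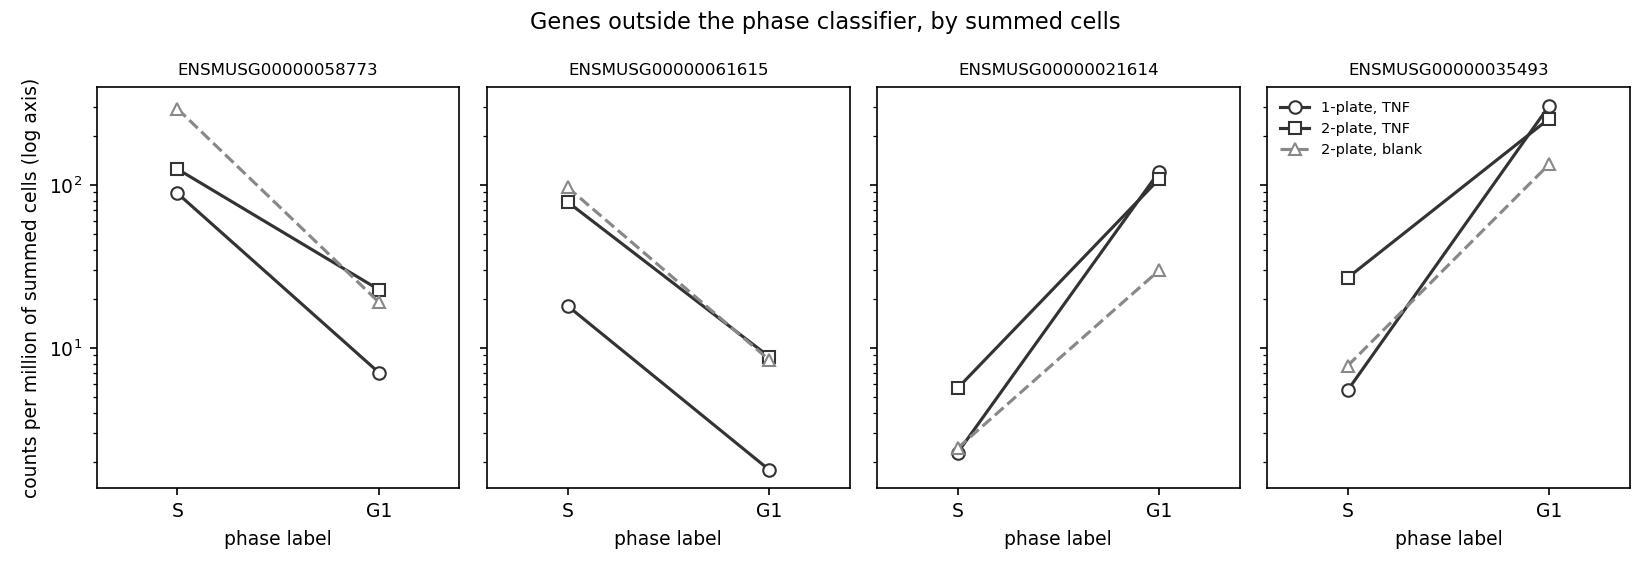
Level of 4 genes in CPM on a log axis, in sums of S cells (left of each panel) and G1 cells (right); lines join sums of the same experiment and stimulus. ENSMUSG00000058773 and ENSMUSG00000061615 were higher in S cells, and ENSMUSG00000021614 and ENSMUSG00000035493 lower, in all 3 pairs of sums. The genes were chosen for large changes in these same sums.

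Most genes that rose with TNF in G2M cells had lower values in S than in G1 cells when all TNF cells were summed, while their median difference was near 0 among transient cells. The list was taken from G2M cells, where 141 of 8549 genes rose with TNF (1.65%; edgeR adjusted p under 0.05, 4 sums, 1 residual degree of freedom) and 26 fell (0.304%). It used the stricter filter of 10 CPM. With the default filter 11 genes rose and 1 fell among 14075, and 11 of those 11 are in the list. This list was drawn up after the data were seen and is described with no test of its own.

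S and G1 cells both showed the TNF difference. TNF minus blank was positive in both experiments for 128 of 141 genes in S cells (90.8%, against 29.2% of all genes tested) and for 125 of 141 in G1 cells (88.7%, against 26.5%). The median log2 difference was 1.82 and 2.30 in S cells, and 1.73 and 1.495 in G1 cells, in the 1-plate and 2-plate experiments. The TNF difference was thus seen in both phases. The 1-plate blank values rest on 3 S and 3 G1 cells.

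Between phases, 111 of 141 genes were lower in S than in G1 TNF cells in both experiments (78.7%, against 31.1% of all genes tested). The median log2 difference, S minus G1, was -1.11 and -0.63 in TNF cells, and -1.02 and -1.05 in blank cells, of the 1-plate and 2-plate experiments. Of the 11 genes found with the default filter, 8 were lower in S TNF cells in both experiments (72.7%, against 28.9% of the 14075 genes of that filter). In the fit over all sums, 131 of 141 had a negative log2 fold change, against 53.5% of all genes. It called 5 of them lower in S cells (3.55%, against 0.173% of all genes) and 0 higher (edgeR, against 0.151%). All genes of this fit are those of the default filter, whereas the list's genes had passed the stricter one in G2M cells. Under the stricter filter 68 of 8432 genes were called lower in S cells and 74 higher. The difference was also seen in blank cells, in which no TNF had been given.

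Differences within response classes were computed without TMM factors, on which scale all TNF cells had medians of -1.07 (1-plate) and -0.62 (2-plate), and all blank cells -0.79 (1-plate) and -1.16 (2-plate). The medians of all genes tested were 0.08 and 0.01 in TNF cells, and 0.14 and -0.21 in blank cells, in the same order. Among transient TNF cells the median log2 difference, S minus G1, was 0.00 in the 1-plate experiment (7 S and 4 G1 cells) and 0.0069 in the 2-plate experiment (12 S and 14 G1 cells). All genes tested had medians of 0.09 and 0.10 in the same transient cells. There, 37 of 141 genes were lower in S in both experiments (26.2%, against 17.8% of all genes tested) and 37 were higher in both (26.2%, against 32.1%). Among oscillatory TNF cells the median was -1.47 in both experiments, with 2 S and 4 G1 cells in the 1-plate experiment, and 2 S and 12 G1 cells in the other. All genes tested had medians of 0.00 and -0.40 in the same oscillatory cells. Of the 141 genes, 116 were lower in S oscillatory cells in both experiments (82.3%, against 32.7% of all genes tested). Higher in both were 9 (6.38%, against 19.5%). The 1-plate blank S and G1 cells were all non-responsive. In the non-responsive blank cells of the 2-plate experiment the median was -1.19 (5 S and 9 G1 cells), against -0.16 over all genes tested. Non-responsive TNF cells of the 2-plate experiment gave -0.12 (5 S and 6 G1 cells), against 0.00 over all genes tested. S TNF cells held fewer oscillatory cells than G1 TNF cells, as given above, so response class moves with this result, and its part in it was not tested.

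**Figure D4:**
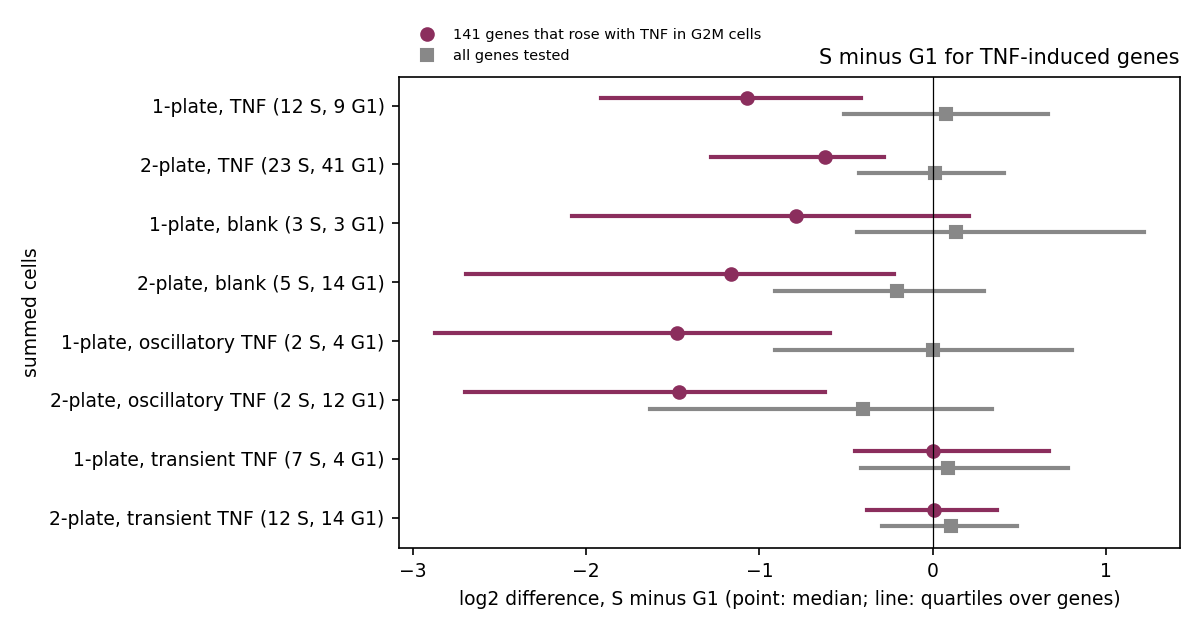
Log2 difference, S minus G1, of the 141 genes that rose with TNF in G2M cells (circles) and of all genes tested (squares), in summed cells of each experiment; points are medians and lines run between the quartiles over genes. The list's medians lie below 0 in the all-TNF, blank and oscillatory rows and near 0 in the transient rows.

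The share of a cell's reads that fell in the 141 genes had a lower median in S than in G1 cells of each experiment, though not on each plate or in each class. In TNF cells of the 1-plate experiment it ran from 0.816% to 3.94% in S cells (median 1.87%), against 0.897% to 8.295% in G1 cells (median 3.15%). In TNF cells of the 2-plate experiment it ran from 0.632% to 5.64% in S cells (median 1.83%), against 0.414% to 8.79% in G1 cells (median 2.50%). The ranges overlapped. On Plate2 of the 2-plate experiment the medians went the other way, 1.82% in 17 S and 1.46% in 23 G1 TNF cells. So did those of the non-responsive TNF cells of that experiment, 2.24% in S and 1.35% in G1. Of the Plate2 TNF cells, 7 of 17 S and 12 of 23 G1 cells had fewer than 8000 detected genes. Among 2-plate TNF cells with at least 8000 detected genes, the medians were 1.85% in 16 S and 4.08% in 29 G1 cells. The part of detected genes in these orders was not tested. In blank cells the medians were 0.775% in S and 1.45% in G1 cells of the 1-plate experiment, and 0.692% in S and 0.863% in G1 cells of the 2-plate experiment.

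Oscillatory G1 cells were among those with the highest shares. Their share ran from 4.33% to 8.295% in the 1-plate experiment (4 cells) and from 1.13% to 8.295% in the 2-plate experiment (12 cells, median 5.996%). The oscillatory S cells lay at 0.980% and 3.94% in the 1-plate experiment and at 1.56% and 2.75% in the 2-plate experiment. Transient cells had medians of 2.07% in S and 2.44% in G1 cells of the 1-plate experiment, and of 1.75% in S and 1.47% in G1 cells of the 2-plate experiment. The order of S and G1 medians among transient cells was thus not the same in both experiments.

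**Figure D5:**
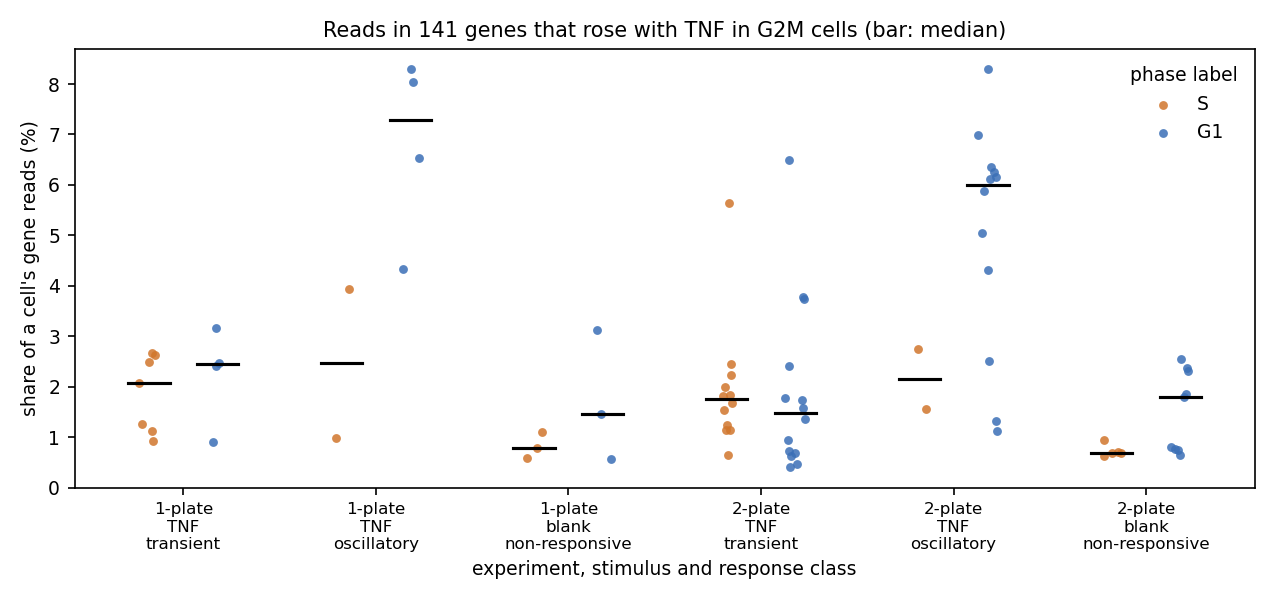
Share of each cell's gene reads in the 141 genes that rose with TNF in G2M cells, for S cells (left of each pair) and G1 cells (right) by experiment, stimulus and response class; bars are medians. Oscillatory G1 cells reach 8.295% in both experiments, above the oscillatory S cells, while transient S and G1 cells overlap.

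The difference was also measured without the cells of few genes. With cells of at least 8000 detected genes, the median over the list in the 2-plate experiment was -0.70 in TNF cells (16 S and 29 G1 cells). With S cells limited to those whose S score was the highest, the medians in TNF cells were -0.94 (7 S cells) and -1.08 (13 S cells). By plate, the medians in TNF cells were -0.55 on Plate1 (6 S and 18 G1 cells) and -0.75 on Plate2 (17 S and 23 G1 cells) of the 2-plate experiment.

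A test of whether the S minus G1 difference itself differed between TNF and blank cells called 56 of 15193 genes (0.369%; edgeR, interaction term, 1 residual degree of freedom). The TNF difference was larger in S cells for 32 of them and larger in G1 cells for 24. This rests on the 2-plate experiment for the blank cells, with 1 blank sum of 5 S cells. Of the 141 TNF-induced genes, 13 were called (9.22%), 7 of them with the larger TNF difference in S cells, so the called members did not go one way. These genes had passed the stricter filter in G2M cells, and under that filter the interaction called 163 of 8432 genes. For the 4 genes described above the interaction did not pass (edgeR adjusted p = 0.573 for ENSMUSG00000058773, 0.992 for ENSMUSG00000061615, 0.638 for ENSMUSG00000021614 and 1 for ENSMUSG00000035493).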

How the data were processed

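Single cells were processed by an adapted Smart-Seq2 protocol without molecular identifiers, per the labels' protocols. The binomial intervals are on numbers of cells and cover counting error only. The deposited counts are whole reads per gene; per the submitters' processing notes SAMtools, Subread 1.5.0 and featureCounts were used. The genome build, annotation and strand use are not given in the sources here, and overlapping, antisense and near-identical genes were not told apart. The authors' deposited cell tables give phases, the fraction-like score of each phase and response classes. How the authors made them is not stated, and cyclone (scran 1.30.0) was rerun here.

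Cells were matched by well and plate. Left out were 357 count columns that match no sample and 44 samples outside the cell tables. Library sizes and tests left out the 92 spike-ins. The planned lists by gene symbol could not be used. Sums were tested with edgeR 4.0.16 in R 4.3.3 (default low-count filter, TMM factors, terms for experiment, stimulus and phase, Benjamini-Hochberg at 0.05, two-sided, 4.39 prior degrees of freedom) and CPM are TMM-scaled. Each SE was obtained from F, as the size of the log2 fold change over sqrt(F). P-values of S against G1 measure the spread of that difference between pairs of sums, which differ in experiment or stimulus. Those of the interaction term and of the TNF list rest on the spread between the 2 experiments. Either spread may be technical, since separate animals are not stated. List differences were computed on log2 CPM with a prior count of 2, and those within response classes and plates without TMM factors.

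Named genes were those with the largest changes among called genes with 1 sign in both experiments and reads in at least 25% of cells of the higher phase. After the data were seen, this was limited to 2 in each direction, outside the classifier. The members and lists were chosen with earlier results of these data known. Alternatives (DESeq2 1.42.0, limma voom 3.58.1, scalings, filters, sums, terms and cells left out) are given with the other limits.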

Additional observations from a re-analysis of the deposited data

Results flagged for a closer look

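On Plate1 of the 2-plate experiment, 1 of 6 S cells with TNF stood far above the others in its share of reads in the 141 TNF-induced genes, at 5.643%, with the next at 2.243% and the lowest at 1.132%. Its deposited S score, 0.0164, was the lowest of the 43 S cells, and its G1 score, 0.658, was the highest. This cell was the only one that stood apart among 15 checks, and chance sets about 1 in 20 such checks apart. The checks took groups of 4 to 10 cells, each for genes detected, gene reads per spike-in read and this share. The S minus G1 difference itself differed between TNF and blank cells for 56 genes (edgeR, interaction term).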

How the results depend on the processing

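The count of 43 genes called was within 1.5 times under relative log expression factors (39). It was 854 with DESeq2, 0 with spike-in factors, 457 with no filter, 142 with the stricter filter, 86 with 1 sum per experiment and phase, 168 on sums per plate, 394 with G2M sums added, 633 with thinned cells, 7 with no minimum of cells per sum and 411 with limma voom. It was 0 without the experiment term and 0 without the stimulus term, where 1177 and 1413 genes had an unadjusted p under 0.05 in edgeR. TNF cells alone gave 173. Leaving out the 1-plate experiment or a plate of the other gave 8 to 412. Chosen after seeing the data, cells with 8000 or more detected genes gave 474, S cells with S as their highest score 72, classifier genes left out 8, transient TNF cells 13 and blank cells with no minimum 9. Of the called genes tested there, 34 of 42 kept their direction among transient TNF cells, and all did under each other alternative. The interaction gave 56 genes, 163 with the stricter filter and 207 with DESeq2. The cause of these changes was not tested. Each of the 4 named genes missed the threshold in 7 or 8 of 22 alternatives, and ENSMUSG00000035493 changed sign in 1, to 0.22 among transient TNF cells.

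Blank cells with a minimum of 5 per sum and the 1-plate experiment alone left no residual degrees of freedom and were not run. No paired analysis was possible because replicate numbers only name the wells; the experiment and stimulus terms of the fit already match the S and G1 sums. With 5 blank S cells in the only blank S sum, differences in blank cells are the least precise.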
